A study of Arabidopsis thaliana with 12 samples.

Results

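The age dependence of the geralt effect was taken as the genotype difference at 12 days minus that at 5 days, in all 12 of the 12 RNA-seq libraries of the series. Polyadenylated RNA came from whole Arabidopsis thaliana seedlings in 4 groups of 3 libraries. At 5 days these were geralt (libraries 1, 3 and 7) and wild type (2, 4 and 8), and at 12 days geralt (5, 9 and 11) and wild type (6, 10 and 12). The geralt plants are the T-DNA insertion line SALK_116579, which the sample titles call phr2, and wild type is Col (N6000). Seedlings of both genotypes were raised in vitro (B5 medium, 1% sucrose, 10 h of light a day) and harvested about 4 h after lights on. The study is 1 insertion line with no second allele in these libraries, and how plants were pooled is not given, so p-values measure the spread between libraries of a group.

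The interaction is the log2 fold change of geralt over wild type at 12 days minus the same at 5 days. It is above 0 where geralt stood higher relative to wild type at 12 days than at 5 days, and below 0 where it stood lower. In young seedlings the plastid genome and many nuclear genes for plastid proteins are read together while leaves green. Plants that lack a fully working plastid often change nuclear photosynthesis genes through retrograde signals, and seedlings between these ages also move from seed reserves to their own carbon, nitrogen and phosphate supply. In bulk seedlings, fewer cells of a type and less RNA per cell cannot be told apart.

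Libraries held 41.6 to 115.03 M total gene reads. PHR2 (AT2G47590), annotated as photolyase/blue-light receptor 2 and not one of the phosphate starvation response factors of similar name, measured 39.7, 20.6 and 28 CPM (counts scaled to library size) in geralt at 5 days and 207, 89.2 and 271 CPM in wild type at 5 days. At 12 days it measured 30.5, 24.5 and 31.8 CPM in geralt and 193, 207 and 203 CPM in wild type, so the genotypes did not overlap at either age. Of the 12, 3 libraries stood apart from their groups, namely wild-type library 4 at 5 days, and geralt library 5 and wild-type library 12 at 12 days. By chi-square over degrees of freedom between libraries of a group, pairs with library 4 had 261 and 375 against 67.4 for the remaining pair. Pairs with library 5 had 348 and 458 against 131, and pairs with library 12 had 475 and 501 against 205. Wild-type library 4 carried reads of 7 genes whose level stayed under 0.5 CPM in each of the 5 remaining libraries of that genotype but exceeded 2 CPM throughout geralt (6 libraries), at 30.8% to 52.1% of their mean in geralt at 5 days. Their interactions ran from 2.17 to 4.93 with that library and from -3.91 to 1.23 without it. Those 7 genes were chosen after the data were seen. Library 12 had the lowest share of plastid reads in wild type, 0.156% against 0.618% to 0.837% in the other 5. Geralt library 1 at 5 days had the lowest plastid share of all 12, 0.133% against 0.296% and 0.379% in its group. Medians of the plastid-encoded lists without geralt library 1 are not given here. For several lists whose median or count moved strongly when these libraries were left out, values without them are given with the list. Such values are not given for every list and library. Whether geralt material or reads reached wild-type library 4 before deposit was not tested, and this bears on every 5-day wild-type value and every interaction.

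No gene passed an adjusted p of 0.05 for the interaction in edgeR's quasi-likelihood test of 21122 genes (0%), the smallest adjusted p being 0.438. At an unadjusted p under 0.05 there were 2185 genes (10.3%), with 1023 interactions above 0 (4.84%) and 1162 below 0 (5.5%). DESeq2 called 78 of the 19054 genes to which it gave an adjusted p (0.409%), with 26 above 0 (0.136%) and 52 below 0 (0.273%), and 77 of the 78 had an unadjusted edgeR p under 0.05. Over all genes tested, 10798 interactions (51.1%) were above 0. The median interaction over all genes tested was 0.02, and its median standard error (SE) of 0.45 stood against 0.32 for the genotype difference at either age. At 5 days 55 genes passed (0.26%), 7 higher (0.0331%) and 48 lower (0.227%) in geralt. At 12 days 169 genes passed (0.8%), 92 higher (0.436%) and 77 lower (0.365%). The 18 genes that passed at both ages were 32.7% of the 5-day genes and 10.7% of the 12-day genes. These counts alone do not show a difference between the ages, which the interaction tests.

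Most of the genes that led the interaction changed side between the ages. Of the 1162 genes with an unadjusted p under 0.05 and an interaction below 0, 1042 (89.7%) had a higher mean in geralt at 5 days and a lower one at 12 days, against 22.6% of all genes. Of the 1023 above 0, 778 (76.1%) were lower at 5 days and higher at 12 days, against 20.4% of all genes. The choice by interaction favours such crossings, so these shares describe the genes and test nothing. Across all 21122 genes, the log2 fold changes at 5 and 12 days, which share no library, had a Pearson r of 0.4 and a Spearman rho of 0.262. Of the 55 genes called at 5 days, 52 kept their sign at 12 days, and of the 169 called at 12 days, 158 had the same sign at 5 days, beside 12049 (57%) of all genes tested.

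**Figure D1:**
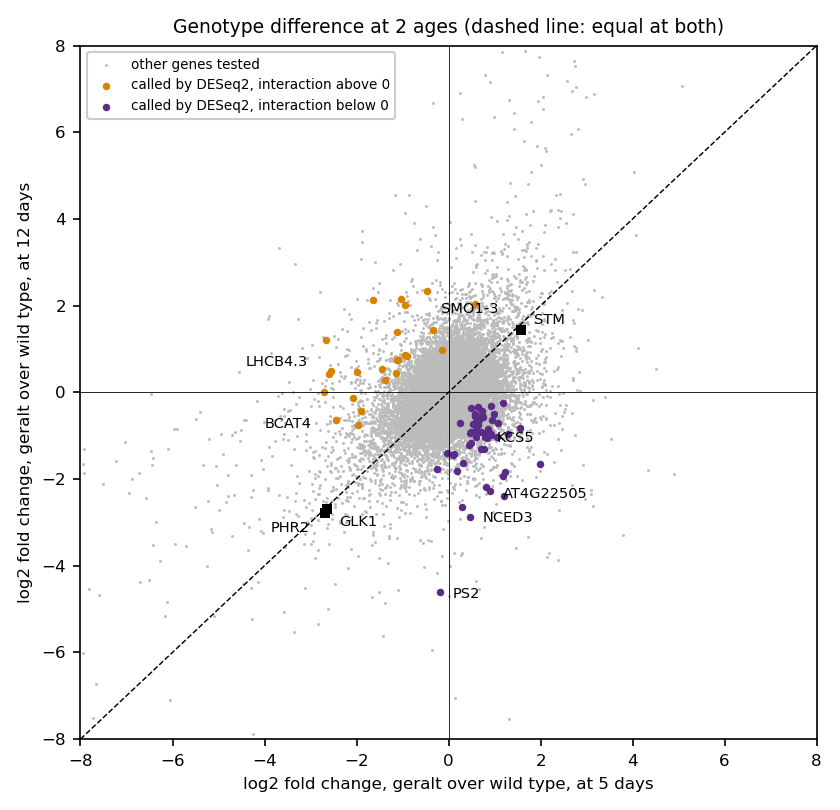
Log2 fold change of geralt over wild type at 5 days (x axis) and at 12 days (y axis), with 1 point per gene tested and the dashed line where both are equal. The genes called by DESeq2 lie above the line (orange, interaction above 0) or below it (purple, below 0), while PHR2, GLK1 and STM (black squares) lie near it; 8 genes, 3 of them called by DESeq2, fall outside the axes at 8.

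PHR2, GLK1 and STM passed the edgeR threshold at both ages with the same sign, and their interactions lay near 0. PHR2 was lower in geralt at both ages. On the log2 scale it was lower by 2.68 (SE 0.37, edgeR adjusted p = 0.0128) at 5 days and by 2.80 (SE 0.37, edgeR adjusted p = 0.0193) at 12 days. Its interaction was -0.11 (SE 0.49). GLK1, a regulator of genes for chlorophyll synthesis and light harvesting, had an interaction of -0.05 (SE 0.56). STM, a homeobox factor of the shoot meristem that was higher in geralt at both ages, had an interaction of -0.15 (SE 0.35). These standard errors leave room for a difference between the ages in either direction, and leaving out a single library turned the sign of each of the 3.

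LHCB4.3, a minor antenna protein of photosystem II, had the smallest p of all genes (AT2G40100, chromosome 2, bases 16745628 to 16747424, plus strand, TAIR10). It measured 4.17, 3.61 and 3.73 CPM in geralt at 5 days, against 26.3, 15.1 and 28.4 CPM in wild type at 5 days. Among 12-day seedlings it measured 6.03, 16.4 and 13.1 CPM in geralt and 11.1, 10.0 and 5.33 CPM in wild type. The genotypes lay apart at 5 days and overlapped at 12 days, when wild type was below its own 5-day libraries and geralt above its own. It was lower in geralt by 2.60 at 5 days (SE 0.39, edgeR adjusted p = 0.0232). Its log2 fold change at 12 days was 0.42 (SE 0.37), and the interaction was 3.02 (SE 0.54, edgeR adjusted p = 0.438). DESeq2 gave it an adjusted p of 0.000813. Without wild-type libraries 4 and 12 and geralt library 5 the interaction was 3.31 with an edgeR adjusted p of 0.00878, and LHCB4.3 was then the 1 gene called. Those 3 libraries stood apart in these same data, and each held the lowest LHCB4.3 level of its group (15.1, 5.33 and 6.03 CPM). That p is therefore a description and not an independent test.

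The other 9 genes of smallest p with an interaction above 0 and at least 1 log2 CPM on average were also not past the edgeR threshold. SMO1-3, a sterol methyl oxidase, measured 8.91, 9.83 and 7.04 CPM in geralt at 12 days and 3.01, 3.24 and 3.20 CPM in wild type at 12 days, without overlap, and overlapped at 5 days (interaction 1.78, SE 0.35). AT1G60110, annotated as a mannose-binding lectin, had an interaction of 2.82 (SE 0.58), and it and SMO1-3 passed at 12 days with an adjusted p of 0.0352 each. AT5G18840, of the major facilitator superfamily of transporters, had 0.549, 0.543 and 0.716 CPM in geralt at 5 days and 5.03, 2.38 and 4.41 CPM in wild type, and lay within 1.44 to 2.64 CPM in all 6 libraries at 12 days. Its interaction was 2.72 (SE 0.51). CSLA11, a cellulose synthase-like gene, had 2.24, 2.39 and 2.50 CPM in geralt at 5 days and 7.97, 9.53 and 9.15 CPM in wild type. At 12 days CSLA11 had 3.99, 4.67 and 3.49 CPM in geralt and 6.22, 4.58 and 5.6 CPM in wild type (interaction 1.47, SE 0.31). STP3, a monosaccharide transporter, and MT2A, a metallothionein, lay below wild type in all 3 geralt libraries at 5 days and above it in all 3 at 12 days, with interactions of 2.51 (SE 0.52) and 1.87 (SE 0.40). Of all 21122 genes tested, 69 had this pattern, which the choice by interaction favours. The others were AT5G22460, an alpha/beta hydrolase (2.46, SE 0.50), AT1G07440, of the Rossmann-fold dehydrogenases (1.59, SE 0.33), and BCAT4 of the glucosinolate pathway. Without each of the 12 libraries in turn, the interactions of these 10 genes lay between 1.36 and 3.32.

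**Figure D2:**
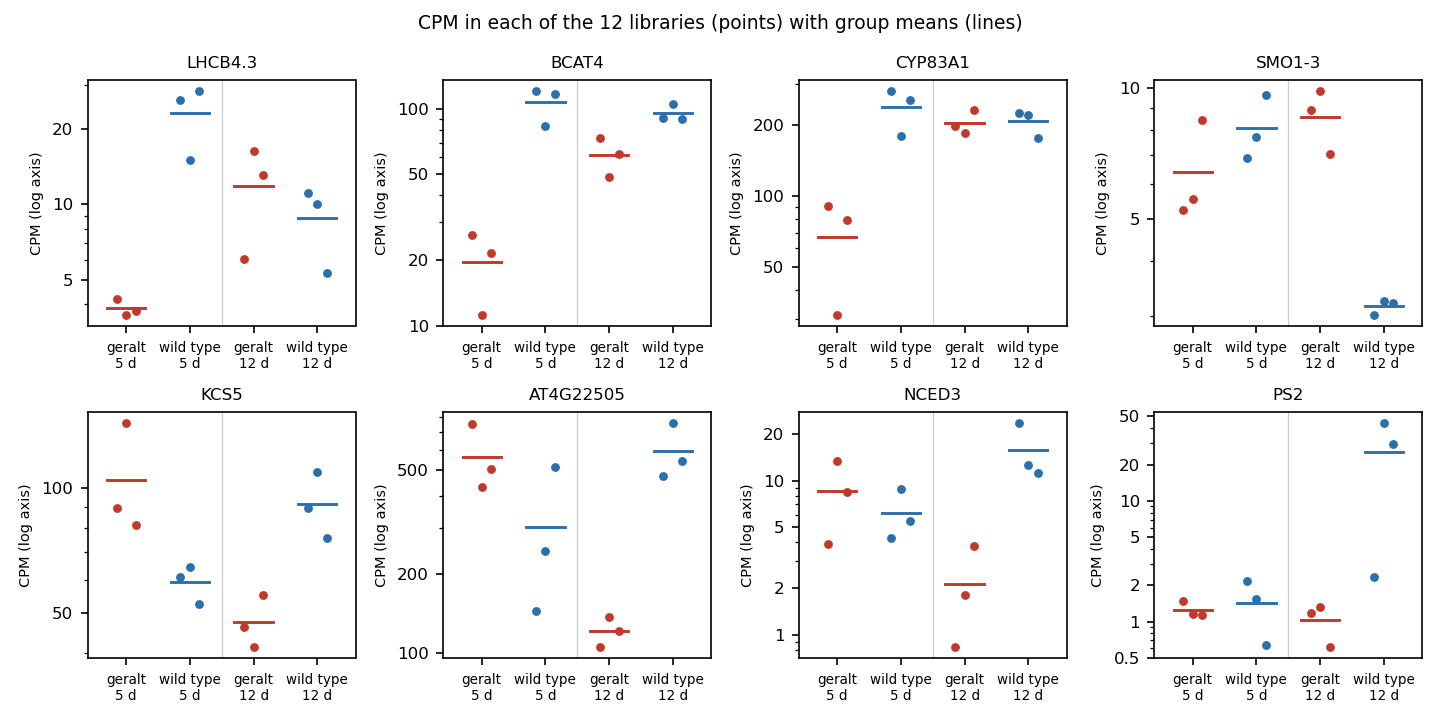
CPM (log axis) of 8 genes in each of the 12 libraries, with points for libraries and lines for group means, geralt in red and wild type in blue. In the upper row geralt is low at 5 days (LHCB4.3, BCAT4, CYP83A1) or wild type is low at 12 days (SMO1-3), and in the lower row geralt at 12 days lies below wild type at 12 days for KCS5, AT4G22505, NCED3 and PS2.

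Glucosinolates are sulfur-rich defence compounds of the cabbage order, made from chain-elongated methionine (aliphatic) or tryptophan (indolic). Of 21 genes of the pathway tested, 6 had an interaction above 0 at an unadjusted p under 0.05 and 0 below 0, which is 28.6% of the list beside 10.3% of all genes. The median interaction was 0.58. At 5 days the median log2 fold change was -0.98 and 3 members passed, and at 12 days it was -0.26 and 0 passed. The list median per library, on centred log2 CPM, stood at -0.25, -0.87 and -0.66 in geralt at 5 days and at 0.42, 0.20 and 0.16 in wild type at 5 days, without overlap. At 12 days it stood at -0.01, -0.08 and 0.22 in geralt and at 0.60, 0.33 and -0.23 in wild type, and the groups overlapped.

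The 6 genes are given in the order of the aliphatic route. BCAT4, the aminotransferase that opens methionine chain elongation, had 26.2, 11.2 and 21.6 CPM in geralt at 5 days, against 121, 83.6 and 118 CPM in wild type at 5 days. At 12 days BCAT4 had 73.6, 48.7 and 62.0 CPM in geralt and 90.6, 106 and 90.1 CPM in wild type. The genotypes did not overlap at either age, and the gap was wider at 5 days (interaction 1.81, SE 0.41). IMD1, an isopropylmalate dehydrogenase of the same elongation cycle, had 36.5, 29.1 and 43.6 CPM in geralt at 5 days and 190, 118 and 155 CPM in wild type. At 12 days IMD1 had 126, 62.5 and 59.6 CPM in geralt and 126, 86.0 and 60.8 CPM in wild type, overlapping (interaction 1.94, SE 0.48). BCAT4 and IMD1 passed at 5 days, with adjusted p of 0.00563 and 0.0327. BAT5, a plastid envelope carrier of the keto acid intermediates, had an interaction of 0.68 (SE 0.31).

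CYP79F1 and CYP83A1 are the cytochromes P450 that turn elongated methionine into the core structure. CYP83A1 had 91.0, 31.3 and 78.9 CPM in geralt at 5 days and 279, 180 and 255 CPM in wild type, and 198, 185 and 231 CPM in geralt at 12 days and 226, 222 and 176 CPM in wild type. Its interaction was 1.81 (SE 0.47), and that of CYP79F1 was 1.59 (SE 0.66). FMO GS-OX1, which oxidises the side chain, had 26.3, 11.8 and 22 CPM in geralt at 5 days and 57.3, 46.8 and 52.3 CPM in wild type, and 45.8, 57.1 and 71.8 CPM in geralt at 12 days and 47.6, 50.0 and 46.0 CPM in wild type (interaction 1.66, SE 0.38). DESeq2 called BCAT4, FMO GS-OX1 and IMD1. The indolic members CYP79B2, CYP79B3, CYP83B1, MYB34 and MYB51 had interactions of -0.58 to -0.02, none at an unadjusted p under 0.05, and MYB28 and MYB29, regulators of the aliphatic genes, of 0.17 and -0.28. A test of aliphatic against indolic members was not run. Leaving out wild-type library 4 gave a list median of 0.62, leaving out geralt library 5 gave 0.34, and leaving out wild-type library 12 gave 0.51.

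**Figure D3:**
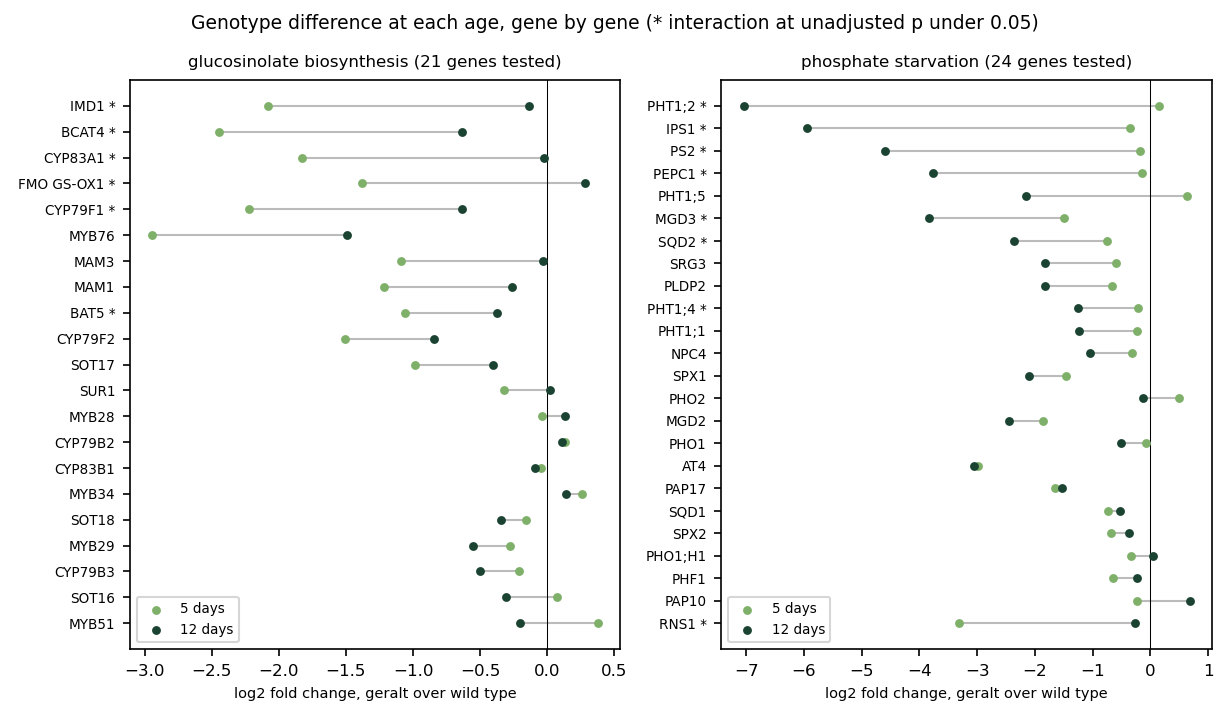
Log2 fold change of geralt over wild type at 5 days (light green) and 12 days (dark green) for each tested gene of 2 lists, joined by a line, with asterisks at an interaction p under 0.05 before adjustment. Glucosinolate genes at the top of the left panel stand far below 0 at 5 days and near 0 at 12 days, while phosphate genes at the top of the right panel stand near 0 at 5 days and far below 0 at 12 days.

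Plastid-encoded photosynthesis genes mostly had a smaller deficit in geralt at 12 days than at 5 days, although none passed the edgeR threshold for the interaction. Of 36 plastid-encoded photosynthesis genes tested, 34 had an interaction above 0, beside 51.1% of all genes, and the median was 1.35. At an unadjusted p under 0.05 there were 8 above 0 and 1 below, a share of 25% beside 10.3% of all genes. Their median log2 fold change was -1.55 at 5 days and -0.38 at 12 days. RBCL, the large subunit of Rubisco, had 11.3, 23.0 and 33.7 CPM in geralt at 5 days, against 1810, 941 and 3090 CPM in wild type at 5 days. At 12 days RBCL had 20.9, 715 and 652 CPM in geralt and 1750, 1980 and 271 CPM in wild type. Geralt library 5 stayed within the 5-day geralt range and libraries 9 and 11 were far above it (interaction 4.90, SE 1.4). PSBA, the D1 reaction centre protein of photosystem II, had 20.8, 51.9 and 53.6 CPM in geralt at 5 days and 1090, 607 and 1440 CPM in wild type, and 47.4, 833 and 1010 CPM in geralt at 12 days and 1440, 1890 and 217 CPM in wild type. Its interaction was 3.73 (SE 1.3). PSBH, a small photosystem II subunit, and PETB, cytochrome b6, had interactions of 3.65 (SE 1.1) and 2.66 (SE 0.99). PSBH passed at 5 days (adjusted p = 0.0327).

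ATPB, a subunit of the plastid ATP synthase, was the member below 0. It had 133, 215 and 253 CPM in geralt at 5 days and 236, 283 and 305 CPM in wild type, and 154, 198 and 179 CPM in geralt at 12 days and 400, 539 and 399 CPM in wild type. It passed at 12 days (log2 fold change -1.33, SE 0.26, adjusted p = 0.0448), and its interaction was -0.88 (SE 0.36). Without geralt library 5 the list median was 1.61 with 14 members above 0 at an unadjusted p under 0.05, and without wild-type library 12 it was 0.92 with 6. In these settings 6.4% and 14.1% of all genes reached that p. The per-library median was -1.81, -0.44 and -0.42 in geralt at 5 days and 0.54, 0.40 and 0.86 in wild type at 5 days. In 12-day plants it was -0.96, 0.78 and 0.77 in geralt and 0.90, 0.96 and -1.26 in wild type. The libraries at -0.96 and -1.26 are geralt library 5 and wild-type library 12.

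Plastid-encoded genes for gene expression and housekeeping, which cover ribosomal proteins, the plastid-encoded RNA polymerase and the Clp protease, had an interaction above 0 in all 33 members tested of 37, with a median of 1.28. At an unadjusted p under 0.05 there were 8, a share of 24.2% beside 10.3% of all genes. Without wild-type library 4 there were 4 of 33, beside 9.94% of all genes. Their median log2 fold change was 0.50 at 5 days, when 0 passed and the per-library medians of the genotypes overlapped, and 1.95 at 12 days, when 6 passed, all higher in geralt. CLPP1, the catalytic Clp subunit, had 50.8, 75.2 and 54.5 CPM in geralt at 5 days and 20.0, 30.3 and 20.7 CPM in wild type, and 46.9, 85.6 and 76.5 CPM in geralt at 12 days and 14.7, 17.6 and 8.83 CPM in wild type. The genotypes lay apart at both ages, and the interaction was 1.00 (SE 0.43). RPL16 of the large ribosomal subunit had 17.7, 25.7 and 27.6 CPM in geralt at 5 days and 13.6, 16.8 and 13 CPM in wild type, and 21.5, 33.5 and 27.6 CPM in geralt at 12 days and 9.88, 6.01 and 2.58 CPM in wild type (interaction 1.45, SE 0.53). RPL14 and RPL20 had interactions of 2.1 (SE 0.69) and 2.47 (SE 0.85), RPL20 at 2.08 CPM or less in every library. RPS7.1 had 1.81 (SE 0.61), but none of its reads were unique, since the gene has a copy in the plastid inverted repeat.

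The per-library median of the expression genes was -0.41, 0.69 and 0.89 in geralt at 5 days and -0.45, 0.30 and 0.03 in wild type at 5 days. At 12 days it was 0.53, 1.23 and 0.91 in geralt and -0.57, -0.42 and -2.46 in wild type, where wild-type library 12 was the lowest of all. Without library 12 the list median was 0.84, and without libraries 4, 12 and 5 it was 0.81. These libraries were made from polyadenylated RNA, and how much of a plastid transcript such a library keeps was not tested. The nuclear plastid transcription machinery, which joins the plastid-encoded polymerase, had a median interaction of 0.38 with 3 of 22 above 0 at an unadjusted p under 0.05, a share of 13.6% beside 10.3% of all genes. Dropping geralt library 5 left 1 such gene, beside 6.4% of all genes, and dropping wild-type library 12 gave 6, beside 14.1%. The 3 with all libraries were FSD3, a plastid superoxide dismutase of the polymerase complex (0.90, SE 0.34), PTAC7 (1.09, SE 0.42) and HMR (0.88, SE 0.36).

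Nuclear-encoded electron transport genes, the photosystem and cytochrome subunits made outside the plastid, had a median interaction of 0.07 with 0 of 33 at an unadjusted edgeR p under 0.05 and 0 called by DESeq2. Their median log2 fold change was -1.48 at 5 days and -1.45 at 12 days. Per library the median was -0.78, -0.91 and -1.29 in geralt at 5 days and 0.83, -0.12 and 0.77 in wild type at 5 days. By 12 days it was -1.75, -0.12 and 0.20 in geralt and 0.98, 1.42 and 0.90 in wild type. When wild-type libraries 4 and 12 and geralt library 5 were left out, the median was 0.65 with 10 members above 0 at an unadjusted p under 0.05. In that setting 11% of all genes reached that p. Without geralt library 5 alone the median was 0.43 with 5 of 33 above 0 at that p, beside 6.4% of all genes. Antenna genes had a median of 0.54 with 2 of 20 above 0 at an unadjusted p under 0.05, LHCB4.3 and LHCA5, a minor photosystem I antenna (0.81, SE 0.33), a share of 10% beside 10.3% of all genes. Without the same 3 libraries the antenna median was 1.09 with 12 members, and without geralt library 5 alone it was 0.92 with 5. LHCB2.3, a major antenna gene, had 24.6, 37.5 and 11.3 CPM in geralt at 5 days and 1020, 333 and 962 CPM in wild type, and 4.98, 416 and 340 CPM in geralt at 12 days and 1960, 2420 and 577 CPM in wild type. Its interaction was 2.27 (SE 1.4) with all libraries and 2.84 without geralt library 5, which held the lowest level of all 12.

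**Figure D4:**
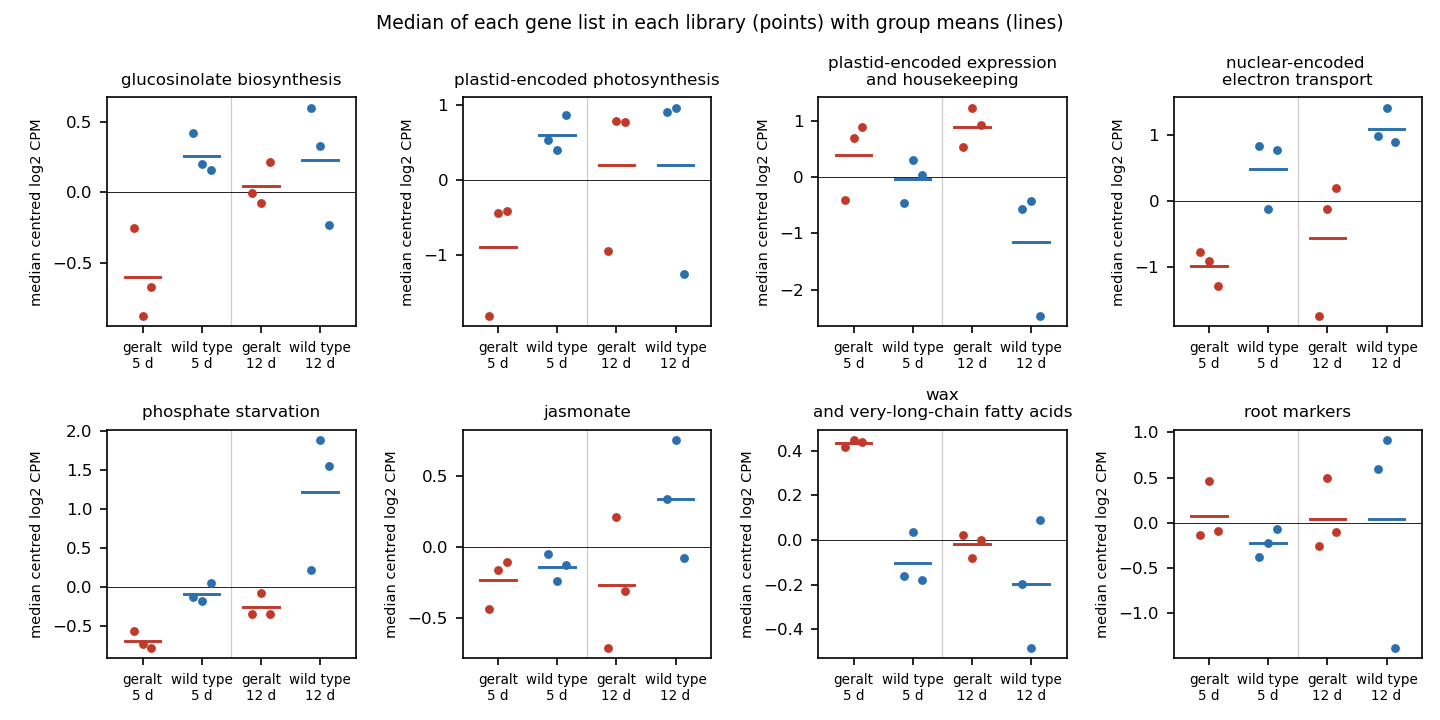
Median over the members of 8 gene lists of log2 CPM centred on each gene's mean over the 12 libraries, with points for libraries and lines for group means, geralt in red and wild type in blue. Group means for glucosinolate and plastid photosynthesis genes are lowest in geralt at 5 days, phosphate medians are high in 2 of the 3 wild-type libraries at 12 days (1.89 and 1.55 against 0.22), and root markers spread from -1.38 to 0.92 in wild type at 12 days.

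Mitochondrially encoded genes had a median interaction of 0.86, with 65 of 76 above 0 and 4 at an unadjusted p under 0.05, which is 5.26% of them beside 10.3% of all genes. Dropping either wild-type library 4 or geralt library 5 left 1 such gene, beside 9.94% and 6.4% of all genes. The mitochondrial share of gene reads was 0.0649%, 0.148% and 0.2% in geralt at 5 days and 0.0822%, 0.118% and 0.0868% in wild type at 5 days. At 12 days it was 0.193%, 0.22% and 0.108% in geralt and 0.0754%, 0.0697% and 0.014% in wild type. The list median was 0.49 without wild-type library 12 and 0.23 without libraries 4, 12 and 5. Genes of the mitochondrial retrograde response, nuclear genes that answer a disturbed respiratory chain, had a median of 0.80. Of 10 tested, 3 were above 0 at an unadjusted p under 0.05, a share of 30% beside 10.3% of all genes. UGT74E2, an auxin glucosyltransferase, had 41.2, 29.6 and 30.0 CPM in geralt at 5 days and 23.8, 18.4 and 10.4 CPM in wild type, and 39.2, 8.47 and 22.2 CPM in geralt at 12 days and 4.39, 2.49 and 3.81 CPM in wild type. It was higher in geralt than in wild type at 12 days (log2 fold change 2.71, adjusted p = 0.0352), and its interaction was 1.77 (SE 0.65). AT2G21640, annotated as a marker of oxidative stress, was higher in geralt at 12 days (3.31, adjusted p = 0.0438) with an interaction of 2.11 (SE 0.84). NDB2, an external NADH dehydrogenase, had an interaction of 1.27 (SE 0.47) and lay below wild type in all 3 geralt libraries at 5 days. Without geralt library 5, 0 of the 10 had an unadjusted p under 0.05, beside 6.4% of all genes, and the median was 0.51.

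Starch genes had a median of 0.31 with 1 of 14 at an unadjusted p under 0.05, which is 7.14% beside 10.3% of all genes. That member was APL3, a large subunit of the ADP-glucose pyrophosphorylase. APL3 had 10.8, 5.72 and 11.4 CPM in geralt at 5 days and 68.1, 28.2 and 47.8 CPM in wild type, and 26.2, 16.1 and 6.88 CPM in geralt at 12 days and 23.9, 18.8 and 19.0 CPM in wild type (interaction 2.04, SE 0.62). Flavonoid and anthocyanin genes had the highest list median, 1.51, and it was -0.091 without geralt library 5. That library had a per-library median of 1.33, while geralt libraries 9 and 11 had -0.78 and -0.57, and the 12-day wild type had 0.43, -0.39 and -1.57. TT8, a bHLH regulator of the pathway, had 1.52, 0.111 and 0.317 CPM in geralt at 12 days and 0.159, 0.155 and 0.0595 CPM in wild type, and the 1.52 CPM came from library 5. Stomatal lineage markers had a median of 0.29 with 1 of 8 at an unadjusted p under 0.05, which is 12.5% beside 10.3% of all genes. It was BASL, a polarity protein of the lineage, at 1.56 (SE 0.68).

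Phosphate starvation genes mostly stood further below wild type in geralt at 12 days than at 5 days. When phosphate is short, plants release it from organic compounds, take up more and replace phospholipids by galactolipids and sulfolipids. Of 24 genes tested, 7 had an interaction below 0 and 1 above at an unadjusted p under 0.05, 33.3% of the list beside 10.3% of all genes, with a median of -0.69. Leaving out library 4, 5 or 12, or all 3, gave medians of -0.85 to -0.71 with 5 or 6 below 0 at that p. In these settings 9.94%, 6.4%, 14.1% and 11% of all genes reached that p. The list median without wild-type library 10, the highest of its group, is not given here. The median log2 fold change was -0.48 at 5 days, when 0 passed, and -1.68 at 12 days, when 6 passed, all lower. Per library the list median was -0.56, -0.73 and -0.78 in geralt at 5 days and -0.13, -0.18 and 0.05 in wild type at 5 days. Among the 12-day libraries it was -0.35, -0.08 and -0.35 in geralt and 0.22, 1.89 and 1.55 in wild type. Wild-type libraries 10 and 12 were thus high and wild-type library 6 close to the 5-day range.

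Promoters of the 2 members of smallest p are shown because both hold the motif bound by the PHR1 family of phosphate response factors. The motif, P1BS, was searched as GNATATNC on both strands in the 250 bases before each gene start, and it reads the same on either strand. It was in 8 of 25 list promoters (32%) and in 1498 of 27438 promoters of chromosome genes (5.46%). The other tested members with a match, SRG3, PLDP2, MGD2, NPC4 and AT4, had unadjusted edgeR interaction p of 0.0695 to 0.953. PEPC1, PHT1;4, SQD2 and RNS1, which are described below, had no match. Capitals mark the match in each sequence, written 5′ to 3′ on the strand of the gene, from RefSeq's TAIR10.1 sequence at gene starts equal to those of the files.
PS2 (chr1:27466349-27466598, minus strand): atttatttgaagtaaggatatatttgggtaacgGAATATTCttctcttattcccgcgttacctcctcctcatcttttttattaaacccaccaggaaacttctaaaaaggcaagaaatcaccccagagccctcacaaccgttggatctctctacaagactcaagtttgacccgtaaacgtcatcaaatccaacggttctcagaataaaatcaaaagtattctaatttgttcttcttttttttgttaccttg
PHT1;2 (chr5:17415448-17415697, plus strand): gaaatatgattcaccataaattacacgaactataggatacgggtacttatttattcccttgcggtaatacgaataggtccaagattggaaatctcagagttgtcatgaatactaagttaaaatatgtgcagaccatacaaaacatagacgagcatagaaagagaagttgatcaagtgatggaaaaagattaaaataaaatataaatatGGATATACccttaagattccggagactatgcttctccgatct
A match is a description of these letters and shows no binding.

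PS2, a pyrophosphatase, had 1.48, 1.16 and 1.14 CPM in geralt at 5 days and 2.15, 1.53 and 0.635 CPM in wild type at 5 days, and the groups overlapped. At 12 days it had 1.17, 1.33 and 0.615 CPM in geralt, against 2.33, 43.8 and 29.6 CPM in wild type. PS2 was lower in geralt than in wild type at 12 days (log2 fold change -4.60, SE 0.83, adjusted p = 0.0352), and its interaction was -4.42 (SE 1.1). Without wild-type library 6 it was -4.96 and passed (edgeR adjusted p = 0.0494), and DESeq2 called it with all libraries (adjusted p = 0.00839). Library 6 held the lowest PS2 level of its group (2.33 CPM), so the pass without it is a description and not an independent test. PHT1;2, a root phosphate transporter, had under 1 CPM in all 9 libraries other than wild type at 12 days, which had 1.29, 80.5 and 5.64 CPM. Its interaction was -7.18 (SE 1.8) and -4.09 without wild-type library 10, and 69.5% of its reads were unique, as it has near-identical neighbours. PEPC1, a phosphatase of phosphocholine and phosphoethanolamine, had 0.495, 14.5 and 6.38 CPM in wild type at 12 days and at most 0.622 CPM in the other libraries (interaction -3.63, SE 1.1).

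PHT1;4, a second root phosphate transporter, had 39.8, 33.2 and 30.8 CPM in geralt at 5 days and 31.5, 42.0 and 46.9 CPM in wild type, and 31.4, 30.6 and 33.7 CPM in geralt at 12 days and 49.2, 94.3 and 86.1 CPM in wild type. It was lower in geralt at 12 days (log2 fold change -1.26, adjusted p = 0.0449), and its interaction was -1.05 (SE 0.35). SQD2, which makes sulfolipid, was lower in geralt at 12 days (-2.37, adjusted p = 0.0352). Its interaction was -1.62 (SE 0.58), and -0.81 without wild-type libraries 4 and 12 and geralt library 5. RNS1, a secreted ribonuclease, went the other way, with 0.851, 0.884 and 1.29 CPM in geralt at 5 days and 14.5, 3.10 and 12.6 CPM in wild type, and overlapping levels at 12 days (interaction 3.06, SE 1.2). Root markers, which stand for the organ where several phosphate transporters are made, had a median interaction of -0.42 with 1 of 16, SCR (-1.18, SE 0.38), at an unadjusted p under 0.05. Without wild-type library 12 their median was -0.83 with 5 of 16 below 0 at that p, and without libraries 4, 12 and 5 it was -0.74 with 4. Of all genes, 14.1% and 11% reached that p in these settings. Their per-library median was 0.59, 0.92 and -1.38 in wild type at 12 days and -0.26, 0.49 and -0.10 in geralt at 12 days, with 12 of 16 interactions below 0. Wild-type library 12 was thus lowest for root markers and high for phosphate genes. The part of root tissue in these values was not tested.

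The 10 genes of smallest p with an interaction below 0 were led by 2 neighbouring genes on chromosome 4. AT4G22505 (bases 11851155 to 11853018, minus strand, TAIR10) and AT4G22485 (bases 11844506 to 11846476, minus strand) are annotated in the superfamily of lipid-transfer proteins and 2S albumins, and each overlaps another annotated gene. AT4G22505 had 755, 433 and 504 CPM in geralt at 5 days and 145, 246 and 515 CPM in wild type at 5 days, overlapping. For 12-day seedlings it had 105, 137 and 121 CPM in geralt, against 476, 756 and 544 CPM in wild type, without overlap. It was lower in geralt at 12 days (log2 fold change -2.29, adjusted p = 0.0352), and its interaction was -3.19 (SE 0.57, edgeR adjusted p = 0.438, DESeq2 adjusted p = 0.000302). AT4G22485 had an interaction of -3.11 (SE 0.59).

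Among the others, 7 of 8 (LRX5 being the exception) lay above wild type in every geralt library at 5 days and below it in every geralt library at 12 days. Of all 21122 genes tested, 94 had this pattern, and 88 of the 94 were among the 1162 genes below 0 at an unadjusted p under 0.05. The choice by interaction favours it, so the count describes these genes and tests nothing. KCS5, 1 of the 8, is described with the wax genes. JKD, a zinc finger factor of root patterning, had 20.9, 27.5 and 22.5 CPM in geralt at 5 days and 16.2, 16.6 and 19.6 CPM in wild type, and 14.9, 18 and 15.6 CPM in geralt at 12 days and 28, 54.4 and 31.1 CPM in wild type. It was lower in geralt at 12 days (-1.22, adjusted p = 0.0461) and had an interaction of -1.66 (SE 0.35). The uncharacterised AT1G21830 had an interaction of -1.83 (SE 0.34), the RING finger gene RHA3B of -2.08 (SE 0.40), the leucine-rich repeat extensin LRX5, a cell wall protein, of -2.01 (SE 0.43), and AT3G13980 of -1.88 (SE 0.41). PXC2, a receptor-like kinase, had 48.1, 56.1 and 47.7 CPM in geralt at 5 days and 33.5, 33.8 and 34.1 CPM in wild type, and 32.9, 34.1 and 33.7 CPM in geralt at 12 days and 55.9, 52.7 and 38.9 CPM in wild type (interaction -1.13, SE 0.25). NPF4.3, of the nitrate and peptide transporter family, had an interaction of -1.59 (SE 0.35). Without each of the 12 libraries in turn, the interactions of the 10 genes lay between -3.82 and -1.03, and none of the 10 passed the edgeR threshold.

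Wax and very-long-chain fatty acid genes build the cuticle. They had a median interaction of -0.51 with 2 of 13 below 0 and 0 above at an unadjusted p under 0.05, a share of 15.4% beside 10.3% of all genes. Dropping wild-type library 4 gave 5 such genes, dropping geralt library 5 gave 3, and dropping libraries 4, 12 and 5 gave 6. Of all genes, 9.94%, 6.4% and 11% reached that p in these settings. Their per-library median was 0.42, 0.45 and 0.44 in geralt at 5 days and -0.16, 0.03 and -0.18 in wild type at 5 days, without overlap. At 12 days it was 0.02, -0.08 and 0.00 in geralt and -0.20, -0.48 and 0.09 in wild type, overlapping. KCS5, a ketoacyl-CoA synthase that elongates these acids, had 89.2, 143 and 81.3 CPM in geralt at 5 days and 61.1, 64.5 and 52.4 CPM in wild type. At 12 days KCS5 had 46.2, 41.3 and 55.1 CPM in geralt and 89.6, 109 and 75.5 CPM in wild type (interaction -1.76, SE 0.34, DESeq2 adjusted p = 0.00408). CER1, of alkane synthesis, had 28.5, 29.1 and 90.9 CPM in geralt at 12 days and 209, 118 and 301 CPM in wild type, and overlapped at 5 days (interaction -2.11, SE 0.64).

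NCED3, the cleavage enzyme that commits carotenoids to abscisic acid, had the lowest interaction in the carotenoid list. It had 3.87, 13.5 and 8.41 CPM in geralt at 5 days and 4.26, 8.77 and 5.47 CPM in wild type, overlapping, and 0.83, 1.80 and 3.77 CPM in geralt at 12 days and 23.5, 12.6 and 11.2 CPM in wild type, apart. NCED3 was lower in geralt at 12 days (log2 fold change -2.89, SE 0.58, adjusted p = 0.0461), and its interaction was -3.36 (SE 0.79, DESeq2 adjusted p = 0.0132). Z-ISO, a carotene isomerase, had an interaction of -1.08 (SE 0.35) and NPQ1, violaxanthin de-epoxidase, of -1.15 (SE 0.50). The other 14 members had none at an unadjusted p under 0.05, so the share of the list was 17.6% beside 10.3% of all genes. The list median was 0.04.

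Jasmonate genes had a median interaction of -0.88, with 16 of 18 below 0 and 3 at an unadjusted p under 0.05, which is 16.7% beside 10.3% of all genes. Without geralt library 5 the median was -0.66 with 1 of 18 at that p, and without wild-type library 12 it was -1.10 with 3. Of all genes, 6.4% and 14.1% reached that p in these settings. MYC2, the central transcription factor of the pathway, had 12.1, 47.6 and 27.6 CPM in geralt at 5 days and 8.00, 14.1 and 7.84 CPM in wild type, overlapping, and 8.50, 18.6 and 17.1 CPM in geralt at 12 days and 12.7, 18.8 and 14.3 CPM in wild type (interaction -1.59, SE 0.62). JAZ1 and JAZ2, repressors of MYC2, had interactions of -1.60 (SE 0.54) and -0.97 (SE 0.39). Oxidative and singlet oxygen genes had a median of -1.14 with 0 of 16 at an unadjusted edgeR p under 0.05, beside 10.3% of all genes, and 0 called by DESeq2. Their per-library median was -0.68, 1.96 and 1.85 in geralt at 5 days and -0.64, 0.88 and -0.88 in wild type at 5 days, so geralt library 1 and wild-type library 4 lay apart from their groups. In the older seedlings it was -0.65, -0.48 and -0.42 in geralt and -0.79, -0.07 and -1.23 in wild type. Without wild-type library 4 the median interaction was -1.82 with 6 of 16 below 0 at an unadjusted p under 0.05, beside 9.94% of all genes.

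Circadian clock genes had a median interaction of -0.46, with 15 of 17 below 0 and 3 at an unadjusted p under 0.05, a share of 17.6% beside 10.3% of all genes. Dropping either geralt library 5 or wild-type library 12 left 1 such gene, and dropping libraries 4, 12 and 5 left 0. Of all genes, 6.4%, 14.1% and 11% reached that p in these settings. All libraries were harvested at 1 time of day, so a shift of phase and a change of level cannot be told apart. Promoters of PRR5 and FKF1 are shown because they are the 2 clock genes of smallest p and both hold the evening element, the motif of evening-expressed clock genes, searched as AAAATATCT on both strands. It was in 4 of 17 clock promoters (23.5%) and in 647 of 27438 promoters (2.36%). TOC1 and LUX also held it, with unadjusted edgeR interaction p of 0.124 and 0.499, and GI did not. Capitals mark the match, which is on the other strand in both PRR5 and FKF1, so that it reads as the reverse complement.
PRR5 (chr5:8358547-8358796, minus strand): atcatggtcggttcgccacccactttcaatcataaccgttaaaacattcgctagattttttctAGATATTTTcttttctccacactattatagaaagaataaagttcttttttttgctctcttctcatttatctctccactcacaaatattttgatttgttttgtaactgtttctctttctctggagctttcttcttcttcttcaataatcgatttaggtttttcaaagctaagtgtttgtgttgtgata
FKF1 (chr1:25508389-25508638, plus strand): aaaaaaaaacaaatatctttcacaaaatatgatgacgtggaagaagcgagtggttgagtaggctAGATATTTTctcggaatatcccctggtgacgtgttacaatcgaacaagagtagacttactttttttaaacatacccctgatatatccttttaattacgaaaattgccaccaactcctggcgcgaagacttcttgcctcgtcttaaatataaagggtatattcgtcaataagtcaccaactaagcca

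PRR5, a repressor in the clock's afternoon loop, had 19.9, 17.6 and 8.30 CPM in geralt at 5 days and 6.72, 6.4 and 3.99 CPM in wild type, and 8.06, 30.7 and 31.7 CPM in geralt at 12 days and 20.7, 21.9 and 78.6 CPM in wild type. The 78.6 CPM is wild-type library 12, and the interaction was -2.21 (SE 0.82) with it and -1.28 without it. FKF1, a blue-light receptor of the flowering pathway, and GI, its partner, had interactions of -2.77 (SE 1.2) and -0.75 (SE 0.34), and of -1.43 and -0.43 without library 12. None of the 3 had an unadjusted p under 0.05 without that library (0.0846, 0.206 and 0.133). Regulators of light signalling and greening had a median of -0.22, with 4 below 0 and 1 above at an unadjusted p under 0.05 among 20. This is 25% of them beside 10.3% of all genes. BBX21, a B-box factor that promotes greening, had 127, 200 and 140 CPM in geralt at 5 days and 75.8, 110 and 81.8 CPM in wild type, apart, and 74.7, 124 and 128 CPM in geralt at 12 days and 162, 226 and 127 CPM in wild type (interaction -1.46, SE 0.41). The B-box genes STO and LZF1 had interactions of -1.42 (SE 0.53) and -1.16 (SE 0.47), and PIL5, a phytochrome-interacting factor, of -1.19 (SE 0.38).

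**Figure D5:**
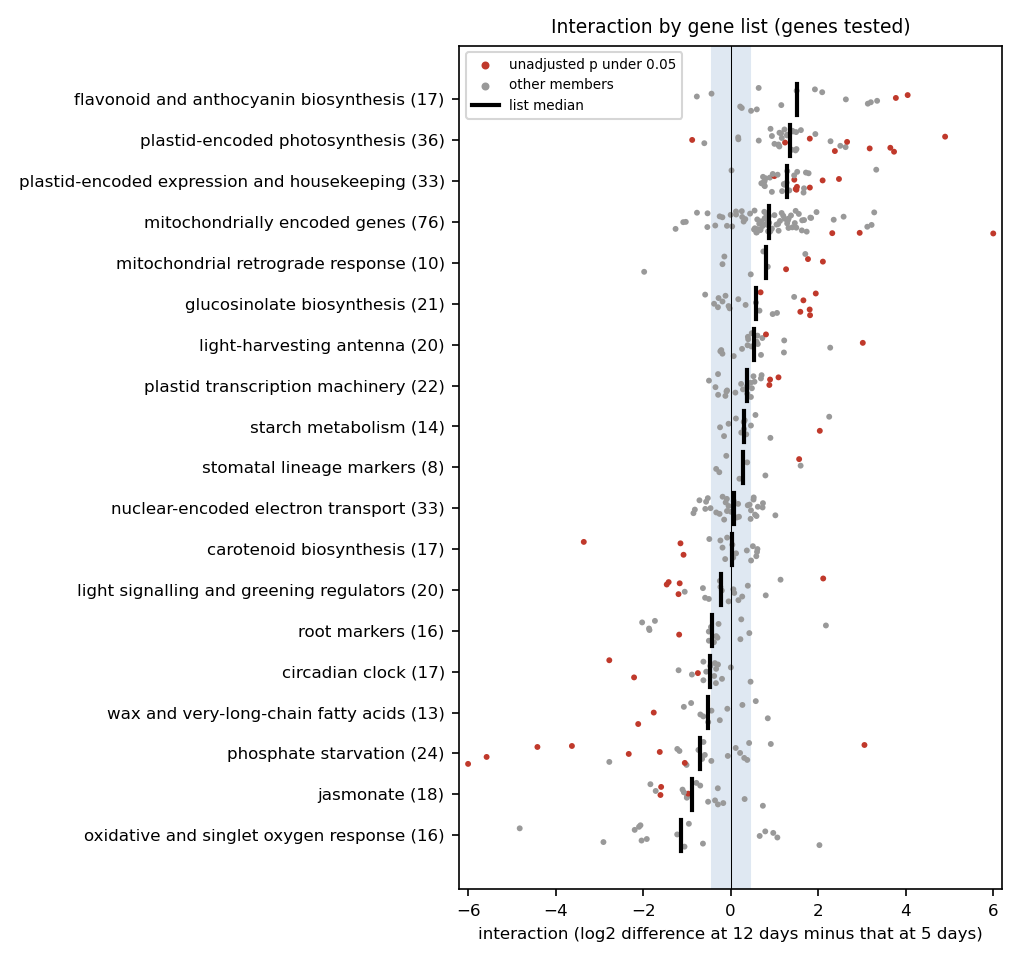
Interaction of each tested gene in 19 gene lists, ordered by list median (black bars), with red points at an unadjusted p under 0.05, grey points for other members and a blue band for the middle 50% of all genes tested (-0.43 to 0.44). Flavonoid and plastid-encoded genes lie at the top, with medians of 1.28 to 1.51, and jasmonate and oxidative genes at the bottom, with -0.88 and -1.14; 2 members beyond 6 are drawn at the edge.

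The remaining 16 lists had median interactions of -0.91 to 0.88, and the lists at both ends turned sign when libraries were left out. The lowest, 5 tested genes of seed storage and late embryogenesis, was at 0.55 without wild-type library 12, and the highest, DNA damage response, was at 0.28 without geralt library 5 and at -0.13 without libraries 4, 12 and 5. At an unadjusted p under 0.05 they held 12 interactions above 0 and 8 below 0 among 229 tested genes, with 0 to 3 in a list. Among all genes 10.3% reached that p. They include chlorophyll biosynthesis (median 0.22, 1 of 26), the Calvin cycle (0.20, 0 of 19), nuclear-encoded plastid ribosomal proteins (0.14, 2 of 26), plastid import (0.18, 0 of 22), iron homeostasis (-0.03, 2 of 21) and cell division (0.41, 0 of 11). For chlorophyll biosynthesis, the median log2 fold change was -0.88 at 5 days and -0.68 at 12 days. For the Calvin cycle it was -0.96 at 5 days and -0.79 at 12 days. Without geralt library 5 the Calvin cycle had a median interaction of 0.50 with 7 of 19 above 0 at an unadjusted p under 0.05, beside 6.4% of all genes. Without libraries 4, 12 and 5 it had 0.69 with 9 of 19, beside 11% of all genes. In that last setting chlorophyll biosynthesis had 6 of 26 and plastid import 5 of 22 above 0 at that p.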

How the data were processed

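Per the file headers, the authors deposited a table per library with total, unique and intron counts of reads per gene and TPM values. The genome build was TAIR10, per the submitters' processing notes. Aligner, counting tool, strand setting and treatment of read pairs: not given in the sources used here. Total gene reads were used as deposited. TPM, as the authors deposited it, was joined for reference and no test used it. Genes were kept with edgeR's filterByExpr by group, scaled by TMM and modelled over the 12 libraries by group means (edgeR 4.0.16 quasi-likelihood test, 8 residual degrees of freedom, Benjamini-Hochberg over 21122 genes). The SE is the absolute log2 fold change over the square root of F. CPM are TMM-scaled. List medians per library use log2 CPM with a prior count of 2. Alternatives were DESeq2 1.42.0, limma 3.58.1 with library quality weights, other scalings and filters, and libraries left out.

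The members and the 35 gene lists were chosen with earlier results of these data known, and list counts and medians are descriptions without a test. Genes were named by a rule: the 10 of smallest interaction p in each direction with an average log2 CPM of at least 1, the 3 of smallest p in each list that holds a gene at an unadjusted p under 0.05 (6 where that share exceeds that of all genes), and PHR2, GLK1 and STM. Of 163 such genes 70 are described, and 18 of these overlap another annotated gene, from which their reads cannot be told apart. Between 99.2% and 99.5% of gene reads were unique. Chi-square over degrees of freedom between libraries of 1 group was 67.4 to 501, so none was a copy of another. The procedure was tested on simulated counts. The lane of a library is not given, so lane was no term.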

Additional observations from a re-analysis of the deposited data

How the results depend on the processing

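No paired analysis was possible because the library numbers 1 to 12 are each used once and join no libraries across groups. With all libraries edgeR called 0 genes for the interaction, with 2185 at an unadjusted p under 0.05, and DESeq2 called 78. Leaving out each library in turn gave 0 to 2 calls, with PS2 and AT2G43620 called once wild-type library 6 was dropped. The genes at an unadjusted p under 0.05 then numbered 1224 to 3196, fewest when geralt library 3 and most when wild-type library 6 was dropped. Without wild-type libraries 4 and 12 and geralt library 5, the 3 that stood apart in these same data, there was 1 call. Leaving out wild-type library 12 with geralt library 5 was chosen after seeing the data.

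Among the 19 lists described one by one, medians that moved by more than the spread between libraries were as follows, the cause of each not tested. Of the other 16 lists, chlorophyll biosynthesis (0.62), plastid import (0.37), salicylic acid (0.26) and DNA damage (-0.13) also moved so without wild-type libraries 4 and 12 and geralt library 5, and this is not a full account of those 16. With library quality weights in limma, flavonoid genes were at 0.091, starch genes at 0.49 and wax genes at -0.71. Without wild-type library 4 and geralt library 5, flavonoid genes were at 0.010 and wax genes at -0.80. Without wild-type library 12 and geralt library 5, plastid transcription genes were at 0.63, flavonoid genes at -0.32, wax genes at -0.68 and carotenoid genes at 0.33. Without all 3, flavonoid genes were at -0.36, starch genes at 0.56, wax genes at -0.84 and carotenoid genes at 0.39. Leaving out 1 library at a time, medians ran from 0.14 to 0.69 for plastid transcription, 0.13 to 0.45 for starch, -0.091 to 2.19 for flavonoid, -0.67 to -0.32 for wax and -0.23 to 0.27 for carotenoid genes.

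PHR2 turned sign with quality weights (0.065) and when wild-type library 4 and geralt library 5 were dropped (0.18), GLK1 in the same settings (0.24 and 0.51) and when wild-type library 12 and geralt library 5 were dropped (0.030). Leaving out 1 library at a time, PHR2 ran from -0.47 to 0.23, GLK1 from -0.27 to 0.30 and STM from -0.50 to 0.021. The other described genes kept their direction in each alternative run.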
